A study of Mus musculus with 26 samples.

Results

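The chemokine gene Cxcl12 and the genes of its receptors, Cxcr4 and Ackr3, were followed through the embryonic cortex and its microglia after maternal immune activation (MIA). They were taken by symbol and make up 3 of the 30406 genes shared by the gene lists of all libraries. Their levels were read in nuclei of the cortex by cell class, genotype and treatment, and in sorted microglia by stage.

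Cxcl12 encodes a secreted chemokine, Cxcr4 a G protein-coupled receptor through which cells migrate along it, and Ackr3 an atypical receptor that binds the same ligand, signals mainly through arrestins and removes the ligand from the surroundings. In the embryonic cortex the axis is known for holding tangentially migrating interneurons in their streams and for placing Cajal-Retzius cells, with the ligand made by meninges and by the intermediate zone and subventricular zone.

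The study asked how fetal brain cells respond to maternal inflammation and what part microglia have in that response. Dams received saline or poly(I:C), a double-stranded RNA made to mimic viral infection, at E12.5, and all mice were on a C57Bl/6N background. Nuclei of the prospective somatosensory cortex came from E15 male embryos that were wild type or Csf1r-null (Csf1r-/-, a constitutive loss of the receptor that microglia need), with 2 libraries in each of the 4 groups of genotype and treatment. Wild-type microglia were sorted as cells positive for Cd11b and Cx3cr1 and low in Cd45 after the meninges had been taken off, and each embryonic sorted library pooled several embryos. At E13 and E15 there were 3 libraries of mixed sex for each treatment. At P14 there were 4 saline libraries, of which 1 was female and 1 male, and 2 MIA libraries. The labels number the female and the male library both as replicate 3, and the fits count them as 2 separate libraries. All nuclei came from 4 dams, with wild-type littermates as controls, so libraries of both genotypes share dams and the treatment, given to the dam, has fewer independent units than libraries. The labels do not tie libraries to dams, so the p-values below measure the spread between libraries, which may be technical in part.

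In GRCm38 with GENCODE M21, Cxcl12 lies at chr6:117168535-117181367 on the plus strand, Cxcr4 at chr1:128588199-128592293 on the minus strand and Ackr3 at chr1:90203980-90216751 on the plus strand. All 3 are protein-coding, and the receptor genes share a chromosome. The 250 bases before each RefSeq start (GRCm38.p6) are shown because the ligand and the receptors differed most clearly by cell class. They cover chr6:117168285-117168534 for Cxcl12, chr1:128592300-128592549 for Cxcr4 and chr1:90203730-90203979 for Ackr3. Capitals mark TATAAA on either strand.
Cxcl12: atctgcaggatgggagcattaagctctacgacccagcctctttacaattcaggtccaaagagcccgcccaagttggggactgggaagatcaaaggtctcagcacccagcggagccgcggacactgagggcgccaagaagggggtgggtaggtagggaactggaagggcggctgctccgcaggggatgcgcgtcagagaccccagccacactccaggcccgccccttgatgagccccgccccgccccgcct
Cxcr4: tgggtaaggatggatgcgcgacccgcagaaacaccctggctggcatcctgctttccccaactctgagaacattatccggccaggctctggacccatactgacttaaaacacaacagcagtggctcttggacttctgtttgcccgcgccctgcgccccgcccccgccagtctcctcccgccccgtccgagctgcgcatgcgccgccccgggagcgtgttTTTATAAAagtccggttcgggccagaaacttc
Ackr3: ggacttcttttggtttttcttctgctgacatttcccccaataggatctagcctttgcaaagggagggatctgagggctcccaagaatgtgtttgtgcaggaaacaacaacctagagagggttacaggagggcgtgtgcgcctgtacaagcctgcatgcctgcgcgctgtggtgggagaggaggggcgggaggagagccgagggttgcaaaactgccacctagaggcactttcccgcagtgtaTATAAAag
The Cxcr4 window held TATAAA 30 to 25 bases before the start and, overlapping it on the other strand, 32 to 27 bases before the start. The Ackr3 window held it 8 to 3 bases before the start, and the Cxcl12 window did not hold it. Over both strands, 12.4% of 32851 promoter windows of the same length held TATAAA. The motif TAATTA, the core read by many homeodomain factors, was in none of the 3 windows and in 4.84% of all. ACGTG, the core of the hypoxia response element, was in none of the 3 and in 16.6% of all. GC content was 64.4% for Cxcl12, 61.2% for Cxcr4 and 54.0% for Ackr3, beside a median of 52.4% over all windows. These are matches of letters only, and no binding was measured.

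After removal of doublets, 41516 nuclei remained, with 9130670 to 16413362 unique molecular identifiers (UMIs, each a tagged RNA molecule) per library. The microglia kept for the comparisons held 6020479 to 96189879 UMIs per library. Levels are given as CPM (UMIs of a gene scaled to a fixed total per class and library), and the counts come from the 3' end of transcripts and are not scaled to length. Csf1r, the targeted gene, gave 23 and 11 UMIs in the wild-type saline libraries, 22 and 0 after MIA, 4 and 10 in the Csf1r-null saline libraries and 2 and 1 after MIA. The library labelled wild-type MIA replicate 2 thus had no Csf1r UMI and no microglia-like nuclei, and the library labelled as saline replicate 2 of Csf1r-null had 10 UMIs and 7 such nuclei, against their labels. The paper genotyped the embryos for Csf1r by PCR and reports that its microglia cluster was almost lost in Csf1r-null mice. Whether these 2 libraries were exchanged was not tested. The comparisons of genotype and treatment are therefore also given without these 2 libraries. That leaves wild-type MIA and Csf1r-null saline with 1 library each, and the lone sample is assumed in those fits to vary like the other groups. Replicate 1 and replicate 2 of the nuclei also differ in the Cell Ranger version named in the file headers, 3.1.0 and 6.0.1. Among the sorted libraries, 982 barcodes recurred between libraries, most often between E13 MIA replicate 2 and P14 saline 3F, where 258 were shared. These were 68.8% of the barcodes of E13 MIA replicate 2, and E13 MIA replicate 1 shared 47.5% of its own with P14 MIA replicate 1. In all, 1827 of 67831 cells (2.69%) were left out as the shallower copies. They were 4 cells of E13 MIA replicate 2, 1 of E13 MIA replicate 1 and 16.2% of E15 MIA replicate 3, among others. Keeping all copies changed no call of a member.

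Ligand and receptors were found in different cells of the E15 cortex. Migrating neurons held 60.2% of all Cxcl12 UMIs while making up 19.4% of nuclei, and intermediate progenitors held 16.9% in 9.48% of nuclei. These shares are pooled over libraries. Migrating neurons made up 9.77 to 10.5% of nuclei in replicate 1 libraries and 25.4 to 30.6% in replicate 2 libraries. Clusters that took no class name made up 29.5% of nuclei and held 9.13% of Cxcl12, 2.29% of Cxcr4 and 10.9% of Ackr3 UMIs. No cluster was named as callosal or subcerebral projection neurons. Interneurons of the medial ganglionic eminence type (MGE-type) made up 5.40% of nuclei and held 66.0% of Cxcr4 and 70.5% of Ackr3 UMIs. Cajal-Retzius cells, the early neurons of the marginal zone, carried both Cxcl12 and Cxcr4 but hardly any Ackr3. The 3 genes, Csf1r and the other genes of the pathway took no part in the clustering.

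**Figure D1:**
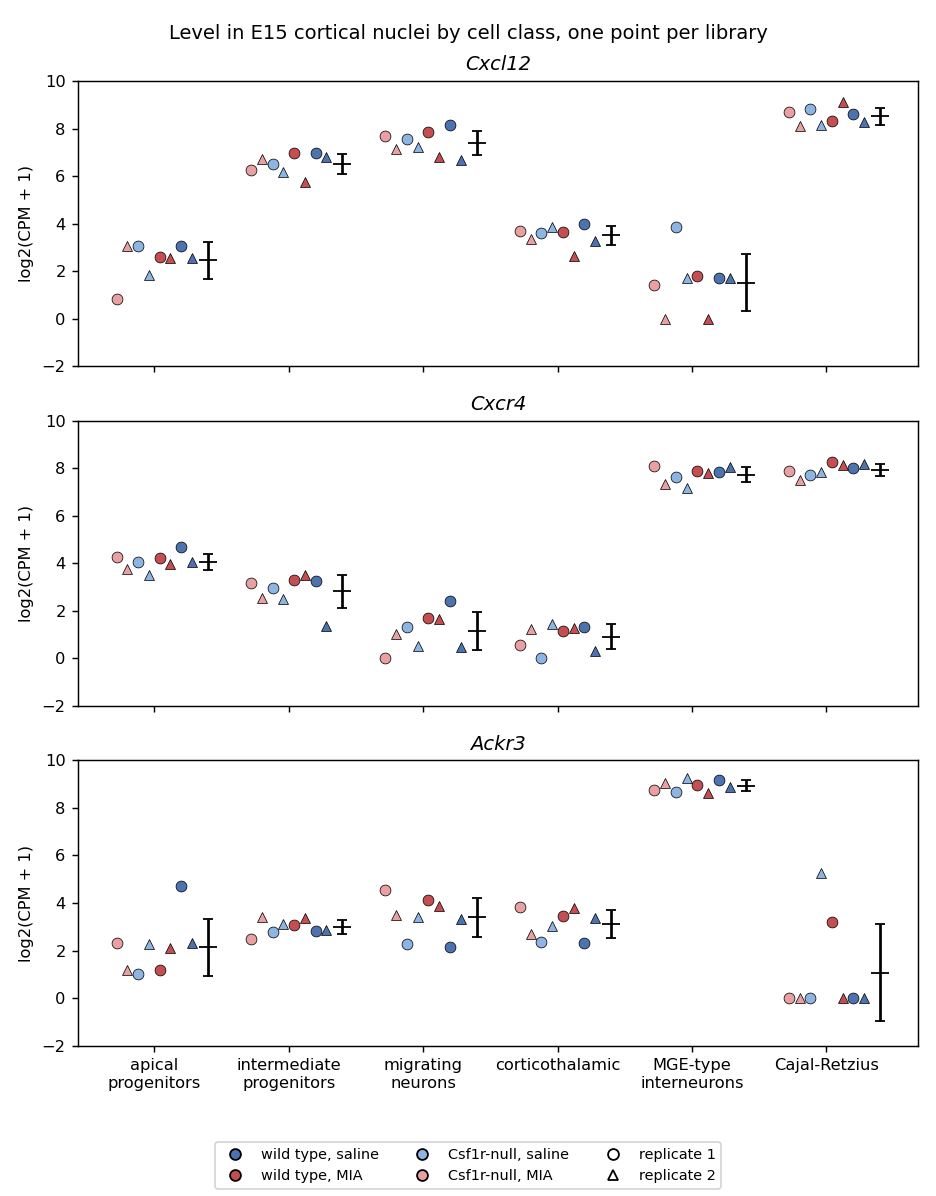
Level of Cxcl12, Cxcr4 and Ackr3 in nuclei of E15 cortex, as log2(CPM + 1), by cell class. Each point is 1 of 8 libraries, coloured by genotype and treatment, with circles for replicate 1 and triangles for replicate 2, and the bars to the right give the mean and SD over libraries. Among the 6 classes plotted, Cxcl12 is highest in migrating neurons, intermediate progenitors and Cajal-Retzius cells, Cxcr4 in MGE-type interneurons and Cajal-Retzius cells, and Ackr3 in MGE-type interneurons, in all 8 libraries.

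Cxcl12 in migrating neurons ranged from 103 to 282 CPM with a median of 169 CPM over the 8 libraries (mean 177 ± 62.0, SD, n = 8). In intermediate progenitors it ranged from 52.2 to 124 CPM with a median of 97.3 CPM (94.0 ± 25.9, SD, n = 8). Corticothalamic projection neurons, which are more mature, had 10.7 ± 2.98 CPM. Within that class a cluster of 962 of the 9160 nuclei, led by Kcnip4 and Unc5c, held 142 of the 285 Cxcl12 UMIs at a pooled 43.5 CPM, and the other 2 clusters had 5.54 and 6.57 CPM. Apical progenitors, the stem cells that line the ventricle, had 5.05 ± 2.41 CPM and MGE-type interneurons 3.04 ± 4.30 CPM, from 14 UMIs in all. By an exact sign-flip permutation test of the within-library difference in log2(CPM + 1), two-sided, migrating neurons were above intermediate progenitors by 0.88 in 7 of 8 libraries (adjusted p = 0.0213). Both were above the other 3 classes in 8 of 8 libraries (adjusted p = 0.0117, from the smallest p that 8 libraries allow, 0.0078125). Apical progenitors and MGE-type interneurons, next to each other at the low end, did not differ beyond their spread (adjusted p = 0.117, higher in apical progenitors in 6 of 8 libraries). In all, 30 pairs of classes and genes were tested.

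The ligand was not even within these classes. Migrating neurons fell into a cluster led by Nrp2, Slc17a6, Neurod1 and Sema3c, here called early, and one led by Rnd2 and Nrp1, here called later. These names are labels, and no order in time was measured. The early cluster, with 3850 nuclei, had 192 to 322 CPM over 8 libraries. The later cluster had 38.5 to 106 CPM over the 6 libraries with at least 20 of its nuclei, so the ranges did not overlap. The later cluster held 128 nuclei of replicate 1 libraries and 4070 of replicate 2 libraries, and the level over the whole class moved with that share. The 4 replicate 1 libraries had 187 to 282 CPM in the whole class and the 4 replicate 2 libraries 103 to 150 CPM, whatever their genotype or treatment. Among intermediate progenitors, a small cluster led by the mitotic genes Cenpe, Cenpf and Mki67 (257 nuclei) had a pooled level of 211 CPM. It rested on 81 UMIs, of which 31 came from wild-type MIA replicate 1. The main cluster had 91.7 CPM and another dividing cluster, led by Top2a, 77.8 CPM. Over libraries these ranged from 56.6 to 384, 44.8 to 143 and 39.1 to 123 CPM, so the ranges overlapped. In both wild-type saline libraries the mitotic cluster was below the main one (128 against 143 and 56.6 against 111 CPM), and in the rest above it. The wild-type saline values of the mitotic cluster rest on 6 and 2 UMIs. Their exact Poisson intervals, 46.9 to 278 and 6.86 to 205 CPM, take in the main-cluster values of the same libraries. The order of both clusters is thus not settled there, and no pattern by genotype or treatment is drawn from it.

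Cxcr4 in MGE-type interneurons ranged from 144 to 269 CPM with a median of 226 CPM (215 ± 44.8, SD, n = 8), from 982 UMIs. Apical progenitors came next among the 5 classes tested, at 10.4 to 24.5 CPM with a median of 15.8 CPM (16.2 ± 4.23). Intermediate progenitors had 6.71 ± 2.85 CPM, migrating neurons 1.52 ± 1.40 CPM and corticothalamic neurons 0.999 ± 0.646 CPM. MGE-type interneurons were above apical progenitors by 3.66 in log2(CPM + 1), in 8 of 8 libraries (exact permutation test, adjusted p = 0.0117). Each step down to migrating neurons held in 8 of 8 libraries at the same adjusted p, and migrating and corticothalamic neurons did not differ beyond their spread (adjusted p = 0.445). Within apical progenitors, the cluster led by Top2a and Kif15 had a pooled level of 22.1 CPM and the other cluster 13.7 CPM, with ranges over libraries of 7.42 to 38.6 and 4.04 to 28.4 CPM that overlapped.

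In droplets of 2 to 50 UMIs, which hold mostly free RNA, Cxcr4 was at 9.39 to 22.3 CPM in the 4 libraries whose files list them. In the same 4 libraries apical progenitors had 15.7 to 24.5 CPM, each above the droplets of its own library. These values rest on 15 to 30 UMIs in apical progenitors and 7 to 37 in droplets. The droplet value lay within the exact Poisson interval at 95% of the apical progenitors in all of them but Csf1r-null MIA replicate 1. Intermediate progenitors, migrating neurons and corticothalamic neurons were each below the droplets. Cxcl12 in such droplets was at 28.9 to 49.1 CPM and Ackr3 at 24.8 to 37.4 CPM. The Cxcl12 of migrating neurons and intermediate progenitors and the receptor levels of MGE-type interneurons were above these values in every library. Every value of Ackr3 in apical progenitors, intermediate progenitors, migrating neurons and corticothalamic neurons was below its highest value in droplets.

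Ackr3 in MGE-type interneurons ranged from 397 to 611 CPM with a median of 491 CPM (492 ± 79.5, SD, n = 8), from 2232 UMIs. Migrating neurons had 11.0 ± 6.24 CPM, corticothalamic neurons 8.25 ± 3.60 CPM, intermediate progenitors 7.13 ± 1.74 CPM and apical progenitors 5.50 ± 8.12 CPM. MGE-type interneurons were above each of these 4 classes in 8 of 8 libraries, by 5.53 to 6.79 in log2(CPM + 1) (exact permutation test, adjusted p = 0.0117). None of the 6 pairs among the 4 other classes differed beyond its spread (exact permutation test, adjusted p from 0.112 to 0.664). In apical progenitors 31 of 51 UMIs came from wild-type saline replicate 1, at 25.3 CPM, and the other 7 libraries had 1.05 to 3.97 CPM. Without that library apical progenitors were below intermediate progenitors, migrating neurons and corticothalamic neurons (adjusted p = 0.0204 for each by the exact permutation test). At Leiden resolution 2, a finer clustering, migrating neurons were above apical progenitors (-1.38 for apical progenitors minus migrating neurons, adjusted p = 0.0488) and corticothalamic neurons (0.71, adjusted p = 0.0204) by the exact permutation test.

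Other GABAergic nuclei carried less Ackr3 than the MGE-type. A cluster led by Ebf1, Isl1 and Six3, genes of striatal neurons, held 851 nuclei, of which 728 came from wild-type saline replicate 1. It had 72 Cxcr4 and 46 Ackr3 UMIs in all, and its pooled levels were 41.6 CPM for Cxcr4 and 26.6 CPM for Ackr3. The pooled Cxcr4 rests on that library, which had 28.1 CPM from 43 UMIs, while the other 7 libraries, with 9 to 44 such nuclei each, had 50.3 to 360 CPM from 1 to 9 UMIs each, a range that reaches that of the MGE-type nuclei. Their Ackr3 was 0 to 67.0 CPM, below every MGE-type value. A dividing ventral cluster led by Dlx1 and Dlx2 (208 nuclei, 95.7% from the same library) had 3 Cxcr4 and 33 Ackr3 UMIs. Over all GABAergic nuclei together, wild-type saline replicate 1 therefore had 84.7 CPM of Cxcr4 and 202 CPM of Ackr3, the lowest of the 8 libraries for both. In its MGE-type nuclei alone it had 227 and 579 CPM and was the lowest for neither gene.

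Both receptors were detected in part of the MGE-type nuclei. Of 2243 nuclei, 685 (30.5%) had a Cxcr4 UMI and 1287 (57.4%) an Ackr3 UMI, at a median depth of 1763 UMIs. In corticothalamic neurons, which serve as a class that should lack Cxcr4, 0.262% of nuclei had a Cxcr4 UMI at a median depth of 2578.5 UMIs. With every nucleus thinned to 1000 UMIs and 312 shallower MGE-type nuclei left out, the shares were 18.05 ± 3.83% for Cxcr4 and 38.4 ± 3.82% for Ackr3 (SD, n = 8). Both receptors were seen in 443 nuclei (19.8%) and neither in 714 (31.8%). Nuclei with a Cxcr4 UMI were deeper, with a median of 2184 against 1591 UMIs, and had 527 CPM of Ackr3 against 484 CPM in those without. That difference was positive in 5 of 8 libraries and negative in the other 3, all labelled Csf1r-null, of which 1 is the saline library whose Csf1r goes against that label. Ackr3 UMIs per Cxcr4 UMI ranged from 1.60 to 4.25 over libraries with a median of 2.10, and the highest ratio was in the library labelled as saline replicate 2 of Csf1r-null.

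Cajal-Retzius cells were few, 138 nuclei in all. Their Cxcl12 ranged from 271 to 560 CPM with a median of 352 CPM and their Cxcr4 from 181 to 306 CPM with a median of 246 CPM, from 196 and 133 UMIs. Ackr3 gave 3 UMIs, and 6 of 8 libraries had none. Every library had both the ligand and Cxcr4 in these cells, at levels that did not overlap with those of the progenitors. The vascular cluster of 56 nuclei, led by the pericyte genes Vtn, Rgs5 and Pdgfrb, had 13 UMIs of Cxcl12, 17 of Cxcr4 and 0 of Ackr3, which in some libraries came to more CPM than in migrating neurons or MGE-type interneurons. The 31 microglia-like nuclei had 0 UMIs of all 3 genes. The upper limit for 0 UMIs, set at 3 UMIs, was 162 CPM in wild-type saline replicate 1 and 188 CPM in wild-type MIA replicate 1. Levels like those of sorted microglia would not be seen in so few nuclei. No test was made on these small classes.

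Across the 5 classes of apical and intermediate progenitors, migrating neurons, corticothalamic neurons and interneurons, the genes whose class means were most like each member were ranked among 9465 candidates, by Pearson's r of log2(CPM + 1). For Cxcl12 these were Zfp943 (r = 0.997), A930024E05Rik, Nt5c, Ust and Itm2b. For Cxcr4 they were Rora (r = 0.997), Ubl3, Fam122a, Wipf2 and Smg9. For Ackr3 they included Pnpla8 (r = 0.996), the interneuron neuropeptide gene Sst (r = 0.995), Elfn1 and Dlx6os1. Sst and Dlx6os1 were among the markers used to name the interneuron clusters, so their likeness to Ackr3 is no separate evidence. The 5 points share libraries and differ in depth. The top of 9465 candidates over 5 points is bound to have a high r, so these values only describe likeness.

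The next question was whether MIA moved the axis in these cells and whether that depended on Csf1r. With summed UMIs of each class in edgeR (quasi-likelihood test, Benjamini-Hochberg adjustment over all genes of the class), none of the 3 genes was called in apical progenitors, intermediate progenitors, migrating neurons or interneurons. This held for MIA against saline in wild type, for MIA against saline in Csf1r-null embryos, for the difference between the genotypes and for Csf1r-null against wild type after saline. The same fits called 0 of 8305 to 10751 genes tested (0% in each of these comparisons). Unadjusted p-values under 0.05 were found for 53 to 984 genes per class and comparison. DESeq2, summed over the 4 classes, called 113 genes for MIA in wild type, 1 for MIA in Csf1r-null, 0 for the difference and 65 for genotype after saline, and no member among them. Equal replicate numbers deviated together in these libraries, and edgeR with a block for the replicate gave 350 calls for MIA in wild type, 2 for the difference and 150 for genotype after saline over the 4 classes, with 0 members called. The filter on low counts kept Cxcr4 in apical progenitors, Cxcl12 in intermediate progenitors, Cxcl12 and Ackr3 in migrating neurons, and both receptors in interneurons. The Cxcl12 of apical progenitors and interneurons, the Cxcr4 of intermediate progenitors and migrating neurons and the Ackr3 of both progenitor classes were too low to be tested.

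Cxcl12 in migrating neurons was 282 and 103 CPM after saline and 233 and 112 CPM after MIA in wild-type libraries (replicates 1 and 2). In Csf1r-null libraries it was 187 and 150 CPM after saline and 206 and 140 CPM after MIA. The log2 fold changes were -0.18 ± 0.42 (SE, edgeR adjusted p = 0.978) in wild type and 0.03 ± 0.42 (adjusted p = 1.00) in Csf1r-null. Each group held 1 library of each replicate number, and replicate 1 was the higher throughout. The groups therefore had to overlap, and the SE of these fits without a replicate block takes in that gap. By the labels, the level after MIA was lower in replicate 1 and higher in replicate 2 of wild type, and the reverse in Csf1r-null. With the labels of both libraries at odds with their Csf1r exchanged (112 and 150 CPM), replicate 2 of Csf1r-null would be higher after MIA. Without both libraries whose Csf1r went against their labels the wild-type value was 0.23 ± 0.50 (edgeR adjusted p = 0.975). In the early cluster alone, wild-type levels were 284 and 237 CPM after saline and 237 and 196 CPM after MIA. Csf1r-null levels there were 192 and 322 CPM after saline and 209 and 318 CPM after MIA. The fold change in wild type in that cluster was -0.29 ± 0.29 in log2 (edgeR adjusted p = 0.959), and -0.18 ± 0.32 without both libraries (adjusted p = 0.998).

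In intermediate progenitors Cxcl12 was 123 and 111 CPM after saline and 124 and 52.2 CPM after MIA in wild type. The low value belonged to the library labelled wild-type MIA replicate 2. In Csf1r-null libraries it was 91.1 and 71.5 CPM after saline and 75.9 and 104 CPM after MIA. The groups overlapped in both genotypes, and the log2 fold changes were -0.43 ± 0.32 (edgeR adjusted p = 0.941) in wild type and 0.12 ± 0.33 (adjusted p = 1.00) in Csf1r-null. Without both libraries whose Csf1r went against their labels, the fold change in wild type was 0.03 ± 0.30 (edgeR adjusted p = 0.997). Both libraries labelled Csf1r-null saline lay below both wild-type saline libraries, a log2 fold change of -0.52 ± 0.33 (edgeR adjusted p = 0.876). The lower of them, at 71.5 CPM, is the one with 10 Csf1r UMIs. Without both libraries at odds with their labels the fold change was -0.40.

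**Figure D2:**
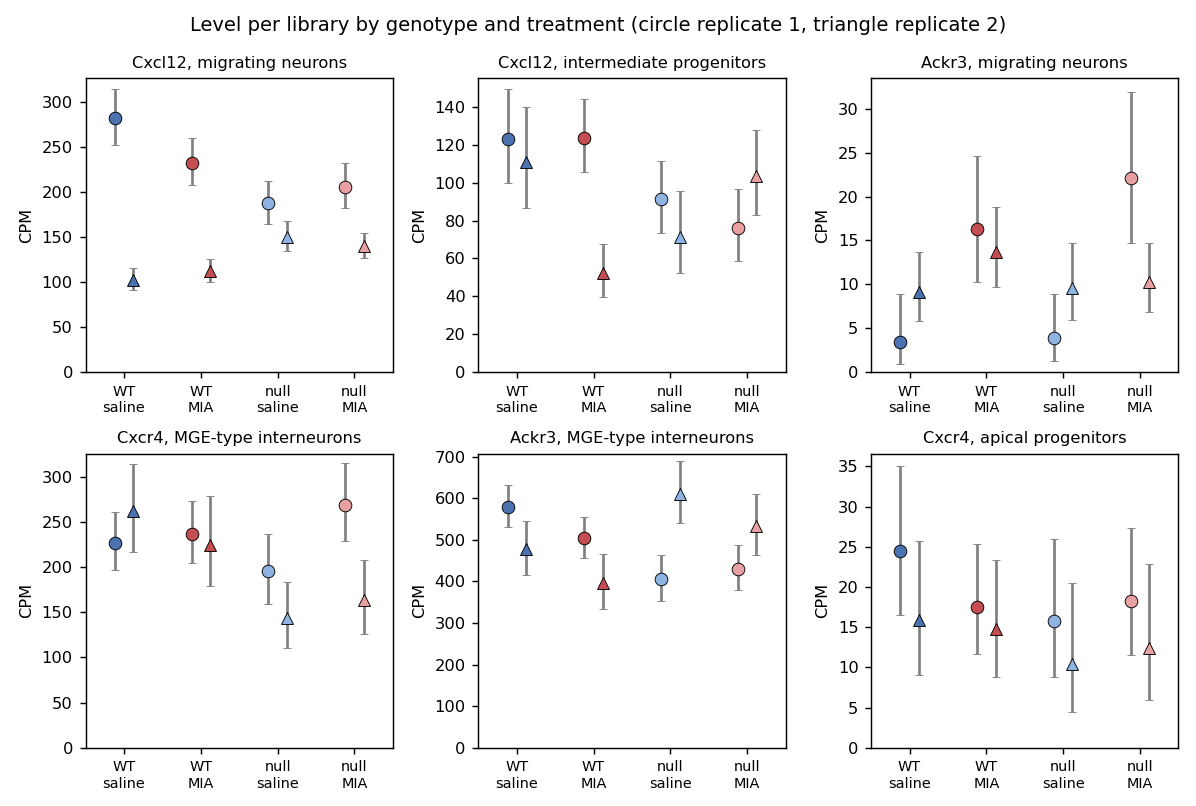
CPM of Cxcl12, Cxcr4 and Ackr3 in single libraries by genotype (WT for wild type, null for Csf1r-null) and treatment, in the classes where each was tested, with MGE-type nuclei for the interneurons. Circles are replicate 1, triangles replicate 2, and bars are exact Poisson intervals at 95%, which cover counting error only. Saline and MIA libraries overlap in each panel except Ackr3 in migrating neurons, where the 4 MIA libraries, at 10.2 to 22.1 CPM, lie above the 4 saline libraries, at 3.48 to 9.60 CPM, as labelled. With the labels of both libraries at odds with their Csf1r exchanged (13.7 and 9.60 CPM), they would overlap. The share of all genes that separate like this was not counted.

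Ackr3 in migrating neurons was 3.48 and 9.16 CPM after saline and 16.3 and 13.7 CPM after MIA in wild type. In Csf1r-null libraries it was 3.82 and 9.60 CPM after saline and 22.1 and 10.2 CPM after MIA. By their labels, all 4 MIA libraries thus lay above all 4 saline libraries, on 4 to 38 UMIs each. How many of all genes separate in this way was not counted, so the separation shows nothing particular to Ackr3. Both libraries whose Csf1r went against their labels are among these, at 13.7 CPM (MIA) and 9.60 CPM (saline), and with those 2 labels exchanged the groups would overlap. The log2 fold changes were 1.01 ± 0.58 (SE, edgeR adjusted p = 0.898) in wild type and 1.08 ± 0.58 (adjusted p = 1.00) in Csf1r-null, and their difference was 0.07 ± 0.82 (adjusted p = 1.00). Without both libraries whose Csf1r went against their labels they were 1.13 ± 0.70 (edgeR adjusted p = 0.966) and 2.04 ± 0.86 (adjusted p = 1.00). In the early cluster alone wild-type libraries had 3.503 and 3.34 CPM after saline and 16.8 and 15.4 CPM after MIA, a log2 fold change of 2.18 ± 0.67 (edgeR adjusted p = 0.938). In Csf1r-null libraries the same cluster had 4.03 and 12.53 CPM after saline and 21.8 and 9.91 CPM after MIA, so that groups overlapped there. Without both libraries whose Csf1r went against their labels, the cluster gave 2.21 ± 0.76 in wild type (edgeR adjusted p = 0.998) and 2.01 ± 0.78 in Csf1r-null (adjusted p = 1.00). Every one of these levels was below that of Ackr3 in droplets of free RNA. The summed level of the 8 general interneuron markers in migrating neurons was 15.3 to 83.4 CPM after saline and 10.9 to 22.1 CPM after MIA. The 8 MGE-type markers summed to 144 and 84.8 CPM after saline and 170 and 107 CPM after MIA in wild type. In Csf1r-null they summed to 152 and 91.4 CPM after saline and 188 and 93.1 CPM after MIA. By the labels these sums were higher after MIA within each replicate number and genotype. With the labels of both libraries at odds with their Csf1r exchanged (107 and 91.4 CPM), replicate 2 of Csf1r-null would be lower after MIA. The part of both lists in the result was not tested.

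Cxcr4 in MGE-type interneurons was 227 and 262 CPM after saline and 237 and 224 CPM after MIA in wild type. In Csf1r-null libraries it was 195 and 144 CPM after saline and 269 and 163 CPM after MIA. Saline and MIA overlapped in both genotypes, while both Csf1r-null saline libraries lay below both wild-type saline libraries. For MIA in MGE-type nuclei the log2 fold changes were -0.13 ± 0.24 (edgeR adjusted p = 0.928) in wild type and 0.34 ± 0.25 (adjusted p = 1.00) in Csf1r-null. Csf1r-null against wild type after saline gave -0.53 ± 0.24 (edgeR adjusted p = 0.600). The lower of the Csf1r-null saline libraries, at 144 CPM, is the one with 10 Csf1r UMIs, and without both libraries at odds with their labels that contrast was -0.42 ± 0.34 (edgeR adjusted p = 0.774), with MIA in wild type at -0.12 ± 0.33 (adjusted p = 0.978). With all GABAergic nuclei, as in the planned comparison, the same contrast gave 0.01 ± 0.42 (adjusted p = 0.998) and MIA in wild type 0.51 ± 0.42 (edgeR adjusted p = 0.720), with the striatal-type nuclei of wild-type saline replicate 1 included.

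Ackr3 in MGE-type interneurons was 579 and 477 CPM after saline and 504 and 397 CPM after MIA in wild type. In Csf1r-null libraries it was 405 and 611 CPM after saline and 430 and 533 CPM after MIA. The groups overlapped, with log2 fold changes of -0.27 ± 0.26 (edgeR adjusted p = 0.833) in wild type and -0.09 ± 0.26 (adjusted p = 1.00) in Csf1r-null. Without both libraries at odds with their labels they were -0.14 ± 0.31 (edgeR adjusted p = 0.977) and 0.33 ± 0.32 (adjusted p = 1.00). Over all GABAergic nuclei the fold change in wild type was 0.40 ± 0.37 (edgeR adjusted p = 0.755). With those 2 libraries left out, MIA in wild type gave 0.48 for Cxcr4 and 0.56 for Ackr3 over all GABAergic nuclei, and genotype after saline 0.16 and 0.21 (edgeR adjusted p from 0.881 to 0.959). Without wild-type saline replicate 2, which leaves the library rich in striatal-type nuclei as the lone wild-type saline sample, Cxcr4 was called higher after MIA in wild type (1.504, edgeR adjusted p = 0.0106) and Ackr3 higher in Csf1r-null than in wild type after saline (1.28, adjusted p = 0.0393). The lone sample is assumed there to vary like the other groups.

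Cxcr4 in apical progenitors was 24.5 and 15.8 CPM after saline and 17.5 and 14.8 CPM after MIA in wild type. In Csf1r-null libraries it was 15.7 and 10.4 CPM after saline and 18.2 and 12.4 CPM after MIA. The groups overlapped. By the labels, the level within each replicate number was lower after MIA in wild type and higher after MIA in Csf1r-null. Both libraries at odds with their Csf1r are among these, at 14.8 CPM (MIA) and 10.4 CPM (saline). With those labels exchanged, Csf1r-null in their replicate number would be lower after MIA, at 12.4 against 14.8 CPM. The log2 fold changes were -0.40 ± 0.35 (edgeR adjusted p = 0.753) and 0.22 ± 0.40 (adjusted p = 1.00). Without both libraries whose Csf1r went against their labels they were -0.31 ± 0.46 (edgeR adjusted p = 0.910) and 0.015 ± 0.51 (adjusted p = 1.00). Csf1r-null saline libraries lay below wild-type saline libraries, by a narrow gap of 15.7 to 15.8 CPM, with -0.66 ± 0.39 (edgeR adjusted p = 0.648), and -0.45 ± 0.50 without both libraries (adjusted p = 0.880).

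In sorted microglia all 3 genes were low. Over the 18 sorted libraries Cxcr4 lay between 0.0841 and 2.94 CPM, Ackr3 between 0 and 4.68 CPM and Cxcl12 between 0 and 0.832 CPM. The receptors changed with age in opposite directions. Ackr3 rose from E13 to E15 and from E15 to P14, and Cxcr4 fell from E15 to P14. Stage cannot be told apart from the day of preparation, and the labels tie no batch to a library.

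**Figure D3:**
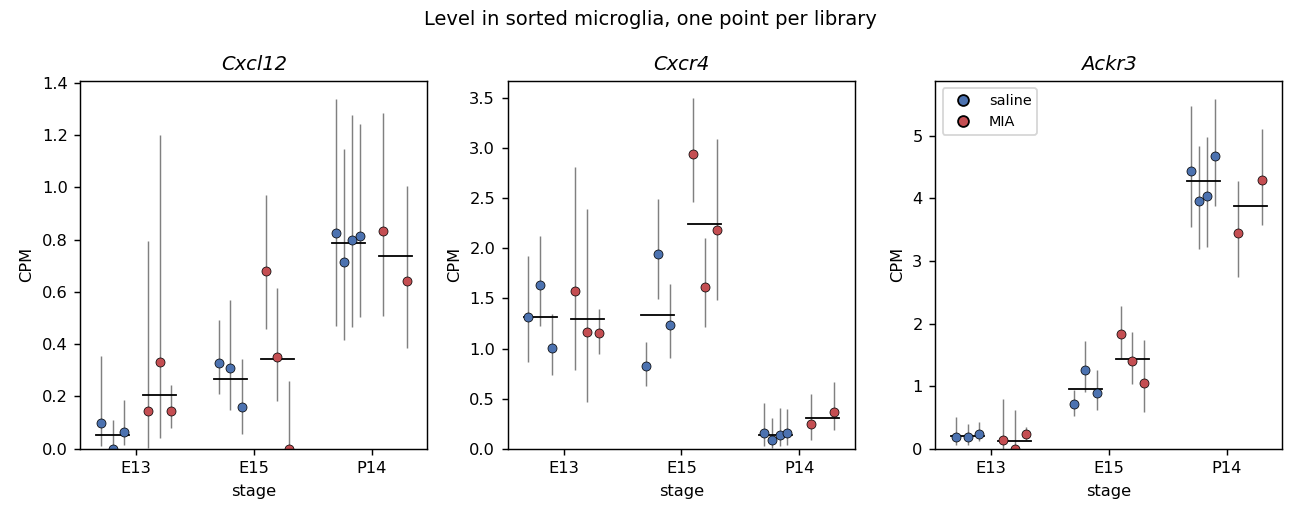
CPM of Cxcl12, Cxcr4 and Ackr3 in sorted microglia by stage, with saline in blue and MIA in red. Each point is 1 of 18 libraries with its exact Poisson interval at 95%, which covers counting error only, and the lines are group means. Ackr3 is at most 0.236 CPM in the E13 libraries and between 3.45 and 4.68 CPM in those of P14, while Cxcr4 is between 0.827 and 2.94 CPM in embryonic libraries and at most 0.372 CPM at P14.

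Ackr3 after saline was 0.195, 0.181 and 0.236 CPM at E13, 0.713, 1.27 and 0.895 CPM at E15, and 4.43, 3.95, 4.03 and 4.68 CPM at P14 (the last 2 being the female and the male library). After MIA it was 0.143, 0 and 0.229 CPM at E13, 1.83, 1.41 and 1.05 CPM at E15, and 3.45 and 4.29 CPM at P14. No stages overlapped in either treatment. From E13 to E15 the log2 fold change was 2.19 ± 0.36 (SE, edgeR adjusted p = 0.000634) after saline and 2.94 ± 0.41 (adjusted p = 0.0001) after MIA. From E15 to P14 it was 1.93 ± 0.29 (edgeR adjusted p = 3.77e-05) after saline and 1.16 ± 0.32 (adjusted p = 0.00977) after MIA. The last of these calls was lost without P14 MIA replicate 2 (1.02, adjusted p = 0.0953) and when no contaminating clusters were removed (0.80, adjusted p = 0.242).

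These calls stand against a wide background of change with age. Of 13907 genes tested, edgeR called 24.1% between E13 and E15 within saline, 29.5% within MIA, 51.4% between E15 and P14 within saline and 36.7% within MIA. Of the 3 members, 2 were called in the first of these comparisons, 1 in the second, 2 in the third and 2 in the fourth. The summed level of 8 general neuron markers in the kept microglia was 19.9 to 42.3 CPM at E13, 27.0 to 230 CPM at E15 and 5.21 to 12.4 CPM at P14. The 8 general interneuron markers summed to 0.0906 to 1.07 CPM at E13, 0.352 to 4.91 CPM at E15 and 0.631 to 1.80 CPM at P14. The 6 endothelial markers summed to 15.3 to 27.9 CPM at E13, 18.7 to 33.7 CPM at E15 and 34.2 to 45.5 CPM at P14, and the 4 oligodendrocyte markers to at most 0.0624, 0.475 and 1.16 CPM. From E13 to E15 Ackr3 thus rose beside the neuron, interneuron and endothelial lists, and at P14 it was highest where the endothelial list was highest and the neuron list lowest. The part of these markers in the changes with stage was not tested.

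Cxcr4 after saline was 1.32, 1.63 and 1.01 CPM at E13, 0.827, 1.94 and 1.24 CPM at E15, and 0.155, 0.0841, 0.141 and 0.155 CPM at P14. After MIA it was 1.57, 1.16 and 1.15 CPM at E13, 2.94, 1.61 and 2.18 CPM at E15, and 0.2495 and 0.372 CPM at P14. All embryonic libraries lay above all P14 libraries. From E15 to P14 the level fell by 3.52 ± 0.40 on the log2 scale (edgeR adjusted p = 1.70e-06) after saline and by 3.07 ± 0.45 (adjusted p = 5.95e-05) after MIA. From E13 to E15 the log2 fold change was 0.03 ± 0.33 (edgeR adjusted p = 0.961) after saline and 0.88 ± 0.36 (adjusted p = 0.0729) after MIA. The 6 P14 libraries gave 29 Cxcr4 UMIs together.

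Cxcl12 was lower still. After saline it was 0.0977, 0 and 0.0643 CPM at E13, 0.328, 0.309 and 0.158 CPM at E15, and 0.825, 0.715, 0.798 and 0.813 CPM at P14. After MIA it was 0.143, 0.332 and 0.146 CPM at E13, 0.679, 0.352 and 0 CPM at E15, and 0.832 and 0.642 CPM at P14. Saline stages did not overlap, on 5 UMIs at E13, 39 at E15 and 71 at P14. From E13 to E15 within saline edgeR gave 2.36 ± 0.83 (adjusted p = 0.0479), a call that was lost in most alternatives, and from E15 to P14 it gave 1.28 ± 0.59 (adjusted p = 0.0799). The second step was called with DESeq2 (1.29, adjusted p = 0.0434) and by edgeR without E15 MIA replicate 1 (1.32, adjusted p = 0.0403) or replicate 3 (1.28, adjusted p = 0.0224). Neither step was called within MIA (adjusted p = 0.248 and 0.482). The neurons taken out of the embryonic sorted libraries had 29.6 CPM of Cxcl12, and with no cluster removed the step from E13 to E15 within saline was 1.05 (edgeR adjusted p = 0.446).

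MIA against saline moved no tested member of the axis past the threshold in microglia. At E13 only Cxcr4 passed the filter, so MIA was not tested there for Cxcl12 and Ackr3. The E13 MIA libraries had 0.143, 0.332 and 0.146 CPM of Cxcl12. These lay above the E13 saline libraries, at 0.0977, 0 and 0.0643 CPM, on 0 to 14 UMIs each. edgeR called 0 genes at E13, E15 and P14 (0% in each), while 119, 77 and 477 genes had an unadjusted p under 0.05 and DESeq2 called 2, 0 and 9. At E15 Cxcr4 was 1.34 ± 0.565 CPM after saline and 2.24 ± 0.668 CPM after MIA (SD, n = 3 each), with groups that overlapped and a log2 fold change of 0.79 ± 0.40 (edgeR adjusted p = 1.00). Ackr3 at E15 was 0.958 ± 0.282 and 1.43 ± 0.390 CPM, with a log2 fold change of 0.64 ± 0.37 (edgeR adjusted p = 1.00). Within equal replicate numbers Ackr3 was higher after MIA in each, and Cxcr4 in replicates 1 and 3 but not 2. The fit with a replicate block called neither. At P14 the fold changes were -0.11 ± 0.16 for Ackr3 (edgeR adjusted p = 0.932) and -0.07 ± 0.32 for Cxcl12 (adjusted p = 0.981). Cxcr4 did not pass the filter there. Its level in both MIA libraries (0.2495 and 0.372 CPM) lay above the 4 saline libraries (0.0841 to 0.155 CPM), on 2 to 11 UMIs each. How many of all genes separate like Cxcr4 at P14 or Cxcl12 at E13 was not counted. The differences of the MIA response between E15 and E13 and between P14 and E15 were also called for 0 genes (0% in each), with 109 and 159 genes at an unadjusted p under 0.05.

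Within microglia, Cxcr4 was higher in certain states. At E15, Spp1-high microglia, a state known from axon tracts of the young brain, made up 7.10% of microglia and held 28.4% of Cxcr4 UMIs (109 of 384), at 4.62 CPM. Its leading genes include Ccl3 and Ccl4 besides Spp1, and 42.2% of its embryonic cells came from E15 MIA replicate 1. The state was above the other microglia of the same library in 6 of 6 libraries, with 3.19 to 6.65 CPM against 0.770 to 2.17 CPM. Dividing E15 microglia were also above the rest in 6 of 6 libraries, with 0.884 to 5.56 CPM against 0.793 to 2.78 CPM. So were Hmox1-high cells (1.60 to 5.84 CPM) and Ms4a7-positive cells and border macrophages (1.69 to 5.67 CPM) at E15, each in 5 of 6 libraries. At E13 dividing cells were higher in 4 of 6 libraries, and the E15 cluster led by Fos, Egr1 and Ier2 was lower than the rest in both libraries with at least 20 of its cells, at 0 and 1.44 CPM. At P14, microglia high in the chemokines Ccl3 and Ccl4 made up 6.53% of cells and held 69.0% of the Cxcr4 UMIs (20 of 29), with 0.582 to 3.62 CPM against 0 to 0.124 CPM in the other microglia, in 6 of 6 libraries. The 6 libraries are the replicates here, and no test was planned on states.

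**Figure D4:**
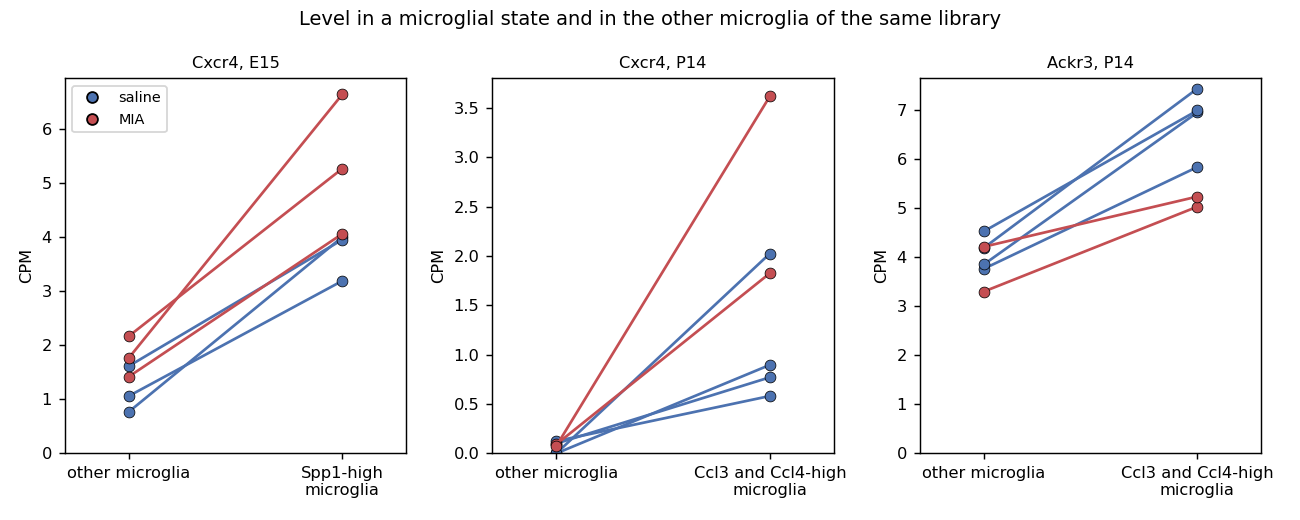
CPM of Cxcr4 in Spp1-high microglia at E15 and of Cxcr4 and Ackr3 in Ccl3 and Ccl4-high microglia at P14, each joined by a line to the level in the other microglia of the same library, with saline in blue and MIA in red. The state is above the other microglia in 6 of 6 libraries in each panel, and Cxcr4 in the other P14 microglia is at most 0.124 CPM.

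Ackr3 was spread more evenly. At P14 it was 4.00 CPM in microglia of no named state, which held 84.1% of its UMIs in 89.0% of cells. The Ccl3 and Ccl4-high cells had 5.02 to 7.43 CPM against 3.29 to 4.52 CPM in the others, higher in 6 of 6 libraries. At E15 Ackr3 was 1.12 CPM in microglia of no named state, 1.27 CPM in Spp1-high cells and 0.662 CPM in dividing cells. At E13 it gave 44 UMIs in all, with 0 in Spp1-high cells. Cxcl12 at P14 was 0.806 CPM in microglia of no named state and 0.439 CPM in Ccl3 and Ccl4-high cells, from 101 and 5 UMIs.

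The other genes of the pathway were 36 ligands, coreceptors, kinases, arrestins, G proteins, effectors and transcription factors, of which 35 were in the files. In nuclei 21 to 25 of them passed the filter in a class and 0 were called in any comparison. In microglia 32 were tested between stages. The counts that follow stand beside 24.1%, 51.4%, 29.5% and 36.7% of all genes called, in the same order of comparisons. From E13 to E15 within saline 4 rose and 1 fell, with a median log2 fold change of 0.16 beside 0.04 over all genes. From E15 to P14 within saline 9 rose and 4 fell, with a median of 0.13 beside 0.02. Within MIA 5 rose and 3 fell in the first step, with a median of 0.15 beside 0.03, and 7 rose and 2 fell in the second, with a median of 0.18 beside 0.01. None of these shares of 32 was above that over all genes, so they show nothing particular to the pathway.

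Among ligands, Mif, a cytokine that can also bind Cxcr4, fell at each step. It was 887 ± 159 CPM at E13, 453 ± 127 CPM at E15 and 89.8 ± 16.1 CPM at P14 over both treatments (SD, n = 6 each), a fall of 2.66 on the log2 scale from E15 to P14 within saline (edgeR adjusted p = 4.13e-07). Cd74, the invariant chain that serves Mif as a coreceptor, rose by 1.13 from E13 to E15 within saline (edgeR adjusted p = 0.00368). Of the receptor kinases and arrestins, Grk3 rose by 1.15 from E13 to E15 (edgeR adjusted p = 0.00184) and by 1.03 from E15 to P14 (adjusted p = 0.000519) within saline. The arrestin gene Arrb2 rose by 0.61 in the second step (edgeR adjusted p = 0.000204).

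Downstream of the G protein, 6 of 10 genes rose and 1 fell from E15 to P14 within saline, beside 51.4% of all genes called in either direction. Elmo1, which joins Dock2 in activating Rac, was 131 ± 31.5 CPM at E15 and 493 ± 23.1 CPM at P14, a log2 fold change of 1.70 (edgeR adjusted p = 5.47e-07). The phosphoinositide 3-kinase genes Pik3r5 and Pik3cg rose by 1.26 and 0.91 (edgeR adjusted p = 8.97e-07 and 0.000333). Ptk2, the focal adhesion kinase, fell by 0.71 (edgeR adjusted p = 0.0349). In nuclei, the interneuron transcription factor Lhx6 was at 441 ± 152 CPM in interneurons. Elmo1 in interneurons was at 380 ± 87.4 CPM and Gng2, a G protein gamma subunit, at 449 ± 81.4 CPM, beside 19.6 ± 4.17 and 100.0 ± 31.9 CPM in migrating neurons.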

How the data were processed

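The authors deposited UMI counts per gene and barcode, made with Cell Ranger against mm10 and not normalized. The labels name Cell Ranger 3.1.0. In the file headers the version was 3.1.0 in microglia and nuclei of replicate 1, and 6.0.1 in nuclei of replicate 2. The authors' cell annotation was not used here, and cell classes were rebuilt. Genes of both lists were joined by Ensembl identifier. Nuclei needed 500 UMIs and 200 genes to be kept. Microglia needed 500 genes and no more than 20% of UMIs from mitochondrial genes. Doublets were scored with Scrublet in scanpy 1.11.5 and the highest scores removed at 0.8% per 1000 cells. Of cells sharing a barcode between sorted libraries, only the deepest was kept. Cells were clustered on 2000 variable genes and 30 principal components with Leiden clustering at a resolution of 1, leaving out the 3 genes, Csf1r and the rest of the pathway list. Clusters were named from marker lists, needing at least 3 markers raised 1.5-fold. Clusters that were not microglia were removed from the sorted libraries.

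Sums of UMIs over each class of a library were tested with edgeR 4.0.16 (quasi-likelihood, TMM, filterByExpr) in R 4.3.3 over all genes, with a threshold of 0.05 on the adjusted p. The 4 groups of nuclei of a class shared a fit, microglia were tested within each stage, and stages in a fit over 18 libraries. DESeq2 1.42.0 was an alternative. Class levels were compared by two-sided exact sign-flip permutation tests on log2(CPM + 1), adjusted over 30 pairs. The NEBULA model of the study, which takes nuclei as observations with the sample as a random effect, was not run. The paper reports that DESeq2 on summed counts gave it similar results. The tests were tested on simulated data. Promoter sequences and coordinates came from RefSeq (GRCm38.p6) and GENCODE M21, and all 3 genes were matched. Genes named besides the members were the pathway genes called at a stage, at most the 6 of smallest p, those of highest level in a role, and for each member the 5 genes most like it, and some genes under this rule are not reported here. The members and lists were chosen with earlier results of these data known. Clusters named in the text for splitting a class were picked after their values were seen.

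Equal replicate numbers went with correlated deviations from the group means in every pair of nuclei libraries and of E15 microglia. The correlations were 0.365 to 0.436 in apical progenitors, 0.328 to 0.377 in intermediate progenitors, 0.509 to 0.591 in migrating neurons and 0.109 to 0.393 in interneurons. They were 0.173 to 0.615 in E15 microglia. In E13 microglia equal numbers gave 0.0563 to 0.400, a range that overlapped that of unequal numbers, which reached 0.198. In nuclei the number also stands for the software version. Intervals and limits from counts cover counting error only. Groups that did not overlap are described by their levels, and the share of all genes that separate likewise was not counted.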

Additional observations from a re-analysis of the deposited data

Results flagged for a closer look

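Some of the cells removed from the sorted microglia libraries, which enter no comparison, had higher levels of a member than the kept microglia. The values more than 5 times as high, on more than 3 UMIs, come second here, after those above by less or not above. Cxcr4 was at 6.34 CPM in embryonic cells led by apical progenitor genes and at 2.58 CPM in those led by neuron genes, beside 1.45 CPM in the kept microglia. At P14, cells led by neuron genes had 1.63 CPM of Cxcl12, 1.87 CPM of Ackr3 and 0 UMIs of Cxcr4, and cells led by red blood cell genes 0 UMIs of Cxcl12 and of Cxcr4. In the embryonic libraries, a cluster led by interneuron genes (285 cells) had 60.1 CPM of Cxcr4 from 54 UMIs and 146 CPM of Ackr3 from 131 UMIs, beside 1.45 and 0.707 CPM in the kept embryonic microglia. Clusters led by neuron genes (2686 cells) had 29.6 CPM of Cxcl12 from 413 UMIs and 4.08 CPM of Ackr3 from 57 UMIs, beside 0.233 and 0.707 CPM. Clusters led by apical progenitor genes (1392 cells) had 6.96 CPM of Cxcl12 and 6.55 CPM of Ackr3, from 34 and 32 UMIs. A cluster led by Igfbp7, Col4a1, the pericyte gene Rgs5 and globin genes (99 cells), which took no single cell type name here, had 18.3 CPM of Cxcl12 and 23.9 CPM of Cxcr4, from 23 and 30 UMIs. At P14, cells led by oligodendrocyte lineage genes (254 cells) had 6.00 CPM of Cxcl12 from 5 UMIs, beside 0.764 CPM in the kept microglia. The ligand in neurons and both receptors in interneurons thus appear in these sorted libraries in the same cell types as in the nuclei, which is a description of the levels and was not tested.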

How the results depend on the processing

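Of the class pairs, Cxcl12 in apical progenitors minus corticothalamic neurons lost its call with no doublet removal (-0.74, exact permutation test, adjusted p = 0.0746), and Ackr3 gained calls at Leiden resolution 2 and without wild-type saline replicate 1, as given in the report. No cause of a change was tested. For MIA in wild type the 4 classes together gave 0 calls, and 423 with no filter on low counts, 113 with DESeq2, 350 with a replicate block and 0 to 375 with 1 library left out, the highest without wild-type saline replicate 2. MIA in Csf1r-null gave 5 with no filter and 1 with DESeq2. The difference between genotypes gave 21 with no filter, 2 with the replicate block and 0 to 49 with 1 library left out, and genotype after saline 227 with no filter, 65 with DESeq2, 150 with the replicate block and 0 to 297 with 1 library left out. MIA in microglia gave 2 at E13 with DESeq2, 5 with the replicate block and 0 to 6 with 1 library left out, and 9 at P14 with DESeq2. E13 to E15 within saline gave 2034 to 4499 calls and E15 to P14 within MIA 3064 to 5660 with 1 library left out.

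Of the members, 1 was called for MIA in wild-type nuclei with no filter (Ackr3 in apical progenitors) and 0 to 1 with 1 library left out, and 0 to 1 for genotype after saline. From E13 to E15 within saline the count of members fell from 2 to 1 with no filter, with no cluster removed, with no doublet removal and without dividing clusters, and was 1 to 2 with 1 library left out, as it was for E13 to E15 and E15 to P14 within MIA. From E15 to P14 within saline it was 2 to 3 with 1 library left out, and 3 with DESeq2. E15 to P14 within MIA gave 1 with no cluster removed. The call of Cxcl12 from E13 to E15 was lost in 19 of 25 alternatives (adjusted p from 0.0119 to 0.446). The replicate block was fitted for the nuclei and for MIA within each stage of microglia, where no member had been called, and it called none. It was not fitted for the comparisons between stages.

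Uncalled log2 fold changes turned their sign as follows. In interneurons, for genotype after saline, Cxcr4 was -0.058 with DESeq2, -0.067 with at least 1000 UMIs per nucleus, -0.058 with no doublet removal, -0.26 without striatal-led clusters, -0.53 in the MGE-type cluster alone and -0.52 there with the replicate block. For Ackr3 in the MGE-type cluster it was -0.050, and -0.088 with the block. Without both libraries whose Csf1r goes against the label, the MGE-type cluster alone gave -0.42 for Cxcr4 and -0.48 for Ackr3 for genotype after saline, -0.12 and -0.14 for MIA in wild type, 0.33 for Ackr3 for MIA in Csf1r-null, and 0.34 and 0.47 for the difference. For MIA in wild type in the MGE-type cluster Cxcr4 was -0.13 and Ackr3 -0.27, and with the block -0.12 and -0.27. For the difference between genotypes there, Cxcr4 was 0.47 and Ackr3 0.18 both without and with the block, and Cxcr4 was 0.20 without striatal-led clusters. Ackr3 for MIA in Csf1r-null interneurons was 0.0075 with no doublet removal and 0.31 without both libraries whose Csf1r goes against the label. Without those libraries Cxcl12 was 0.033 for MIA in wild type and -0.032 for the difference in intermediate progenitors, and in migrating neurons 0.23, -0.076 and -0.31 for MIA in wild type, in Csf1r-null and their difference. Ackr3 in migrating neurons for genotype after saline was -0.94 there, -0.13 at Leiden resolution 2, -0.23 with no doublet removal, -0.017 with no filter and -0.014 with the replicate block. Its difference between genotypes was -0.15 with at least 1000 UMIs, -1.08 in the early cluster alone and -1.03 there with the block, and -0.20 in that cluster without both libraries. At resolution 2 Cxcl12 for genotype after saline was 0.023 in migrating neurons, and Ackr3 in intermediate progenitors minus corticothalamic neurons was 0.25. In microglia, MIA at E13 gave 0.031 for Cxcr4 with no cluster removed, 0.035 with the replicate block and 0.11 without dividing clusters. With no cluster removed Cxcl12 from E15 to P14 within MIA was -1.86, and the difference of the MIA response between E15 and E13 was -0.21 for Ackr3 and 1.08 for Cxcl12. Without dividing clusters that difference was -0.19 for Ackr3 and 0.058 for Cxcl12.

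With 1 library left out, values spanned 0 as follows. In interneurons, Ackr3 ranged from -0.28 to 0.30 for MIA in Csf1r-null, from -0.13 to 1.15 for MIA in wild type and from -1.16 to 0.11 for their difference, and Cxcr4 from -0.18 to 1.504 for MIA in wild type, from -1.09 to 0.59 for the difference and from -0.69 to 1.00 for genotype after saline. In migrating neurons, Ackr3 ranged from -0.95 to 1.09 for genotype after saline and from -1.04 to 1.01 for the difference, and Cxcl12 from -0.69 to 0.58 and from -0.54 to 0.77 for the same, from -0.74 to 0.57 for MIA in wild type and from -0.19 to 0.22 for MIA in Csf1r-null. Cxcl12 in intermediate progenitors ranged from -1.17 to 0.034 for MIA in wild type and from -0.18 to 0.39 for MIA in Csf1r-null, and Cxcr4 in apical progenitors from -0.032 to 0.51 for MIA in Csf1r-null. Ackr3 in intermediate progenitors minus corticothalamic neurons ranged from -0.23 to 0.061. In microglia, MIA gave -0.22 to 0.14 for Cxcr4 at E13, -0.31 to 1.00 for Cxcl12 at E15, and -0.27 to 0.015 for Ackr3 and -0.28 to 0.12 for Cxcl12 at P14. Cxcr4 from E13 to E15 within saline ranged from -0.32 to 0.31, and the difference of the MIA response of Cxcl12 between P14 and E15 from -1.06 to 0.22.

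Depth limits the progenitors' Ackr3, the migrating neurons' Cxcr4 and the microglial Cxcl12, which rest on few UMIs. Classes with 2 libraries a group show large changes only.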

Other observations

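The clusters that took no class name, 12236 nuclei, had Cxcl12 at 6.01 to 16.5 CPM, Cxcr4 at 0.427 to 1.56 CPM and Ackr3 at 5.77 to 19.8 CPM over the 8 libraries, beside 5.30 to 14.7, 0 to 1.69 and 4.05 to 13.1 CPM in corticothalamic neurons. The corticothalamic cluster led by Kcnip4 and Unc5c (962 nuclei) had 12.6 to 79.3 CPM of Cxcl12 over libraries, a range that overlaps that of the later migrating neurons.

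Among E15 microglia, a cluster led by the immediate early genes Fos, Egr1 and Ier2 had 2.77 CPM of Ackr3 from 41 UMIs, with 94.0% of its cells from E15 MIA replicate 1, and Ms4a7-positive cells and border macrophages 2.59 CPM of Cxcr4 from 34 UMIs. At E13, microglia of a cluster led by globin genes and Hmox1 had 3.503 CPM of Cxcr4 from 13 UMIs, Spp1-high cells 3.60 CPM from 11 UMIs and dividing cells 1.41 CPM from 137 UMIs, beside 0.706 CPM in microglia of no named state.

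In the vascular nuclei, Cxcr4 and Cxcl12 were found on 17 and 13 UMIs while Ackr3 was at 0 UMIs in all 8 libraries. The upper limit for these 0 UMIs, set at 3 UMIs, was 214 to 282 CPM in the replicate 1 libraries.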
